A study of Mus musculus with 14 samples.

Results

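The genes described here recognise phosphatidylserine on dying cells or drive the uptake of those cells, and they were followed in mouse fibroblasts that lack Ptdsr, a gene once named the phosphatidylserine receptor and now called Jmjd6. They were chosen by name, as every probe annotated to Mfge8, Gas6, Itgb5, Itgav, Axl, Mertk, Bcar1, Elmo1, Dock1 or Rac1. Of these 10 genes, 9 had a probe (of 9930 genes named on the array), 19 probes in all among 20355, and Mertk was not analysed here. In all, 18 probes of 8 genes had a usable value on at least 10 of the 14 arrays and were tested, out of 18503 probes tested. Just inside this limit lay 1 Itgb5 probe with 10 values, and just outside lay the Itgav probe with 9.

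RNA of Ptdsr-/- fibroblasts was hybridised together with wild-type fibroblast RNA on each of 14 arrays, 7 of them with Cy5 on the knockout and 7 with the dyes exchanged. The series design names 2 fibroblast cultures, but the labels do not say which array belongs to which culture, so p-values cover the spread between arrays, which may be partly technical. Strain, age, passage and the extent of the deletion are not given in the sources, and the labelling protocol speaks of a reference pool of control animals where the channel labels name wild-type fibroblasts. Each value is a log2 ratio, knockout to wild type, with every array's median set to 0. That direction is likely but not stated: the coded extreme of each array was positive on all 7 Cy5 arrays and negative on all 7 Cy3 arrays. In cultures, fewer cells of a type and less RNA per cell cannot be told apart.

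A cell in apoptosis moves phosphatidylserine to its outer membrane, where it serves as a signal for uptake. Phagocytes bind it through receptors or through soluble bridging proteins: Mfge8 links the lipid to the integrins of Itgav with Itgb3 or Itgb5, and Gas6 links it to the receptor tyrosine kinases Axl, Mertk and Tyro3. Downstream, the adaptor p130Cas (Bcar1) and the Elmo1-Dock1 exchange factor act on the GTPase Rac1, which rearranges actin around the particle. Fibroblasts can take up dying cells as non-professional phagocytes. Itgb5, Bcar1 and Rac1 also serve adhesion and migration.

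Between 13165 and 19615 probes per array had a usable ratio, and the fewest were on replicates 2 (13165) and 1 (14302), below 17715 on the next. The targeted gene was lower on 12 of 14 arrays, at a mean log2 ratio of -0.51 ± 1.14 (SD, n = 14), and did not pass (limma, adjusted p = 0.895). Replicates 2 and 6 stood against their labels, at 2.92 and 0.46. A second Jmjd6 probe had 5 values and was not tested; it was above 0 on 4 of these, from 0.48 to 1.09, and at -1.65 on replicate 12. Whether either probe lies in the deleted part is not known here. Leaving out replicates 1 and 2 together was a choice made after the values were seen. It gave a Jmjd6 mean of -0.73, with an unadjusted p of 0.00136 (limma, adjusted p = 0.518). Without replicate 2 alone the mean was -0.77 (limma, unadjusted p = 0.000597, adjusted p = 0.463). Without replicate 1 alone it was -0.47 (limma, unadjusted p = 0.146, adjusted p = 0.909). Ratios carry no level, so the cell type could not be checked against the amount of its markers. Of 19 probes for 10 of 12 listed fibroblast genes, 0 were called, with a median of -0.05, and 1, for Dcn, reached an unadjusted p below 0.05 (-0.65 ± 0.72, SD, n = 14; limma adjusted p = 0.895). Of 17 probes for 12 of 19 listed macrophage and leukocyte genes, 1 was called, for Lyz2, at -1.47 ± 0.80 (SD, n = 12, limma adjusted p = 0.0454), and the list's median was -0.22. At the unadjusted level 3 of these 17 were lower and 0 higher, the called probe, a second Lyz2 probe at -1.55 ± 1.03 (SD, n = 14, limma adjusted p = 0.0595) and Cd68 at -0.51 ± 0.55 (SD, n = 13, limma adjusted p = 0.895). At that level the lower probes came from Lyz2 and Cd68 alone. Over all probes tested, 0.0324% were called. At the unadjusted level, 2.76% of all probes were lower and 2.3% higher. By array, the median macrophage marker ran from -0.52 to 0.33 with the knockout in Cy5 and from -0.71 to -0.0035 with it in Cy3. Their part in the results below was not tested.

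None of the 18 recognition and engulfment probes was called (limma, Benjamini-Hochberg adjusted p below 0.05; 0 of 18, with adjusted p from 0.895 to 0.999). Over all probes the share called was 0.0324%. Their means were spread evenly about 0, with 9 below and 9 above and a median log2 ratio of 0.0059, beside 0.0065 for all probes tested. At an unadjusted p below 0.05 there were 3 probes, or 16.7%, beside 5.05% of all probes. These were probe 16680 of Bcar1, probe 5633 of Elmo1 and probe 1660 of Itgb5. All 3 lay below 0, against a background of 2.76% of probes lower and 2.3% higher at that level. The count was 1 when any of replicates 7, 8, 9, 13 or 14 was left out and 1 with a random block that joined arrays of equal dye within replicates 1 to 6, 7 to 12 or 13 to 14. Without replicate 7, 8 or 13 that fall came from the filter alone, as the Bcar1 and Itgb5 probes had too few values to be tested. Without replicate 9 the Bcar1 probe was not tested, and the Itgb5 probe had an unadjusted p of 0.05004 (limma). Without replicate 14 the Itgb5 probe was not tested, and the Elmo1 probe had an unadjusted p of 0.0597 (limma). With the block all 18 probes were tested. Without replicates 1 and 2 together 3 of 16 probes reached an unadjusted p below 0.05, Dock1 7642 among them, and the Itgb5 probe was not tested. Bcar1, Elmo1 and Itgb5 each had at least 1 other probe that lay near or above 0, as described below.

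**Figure D1:**
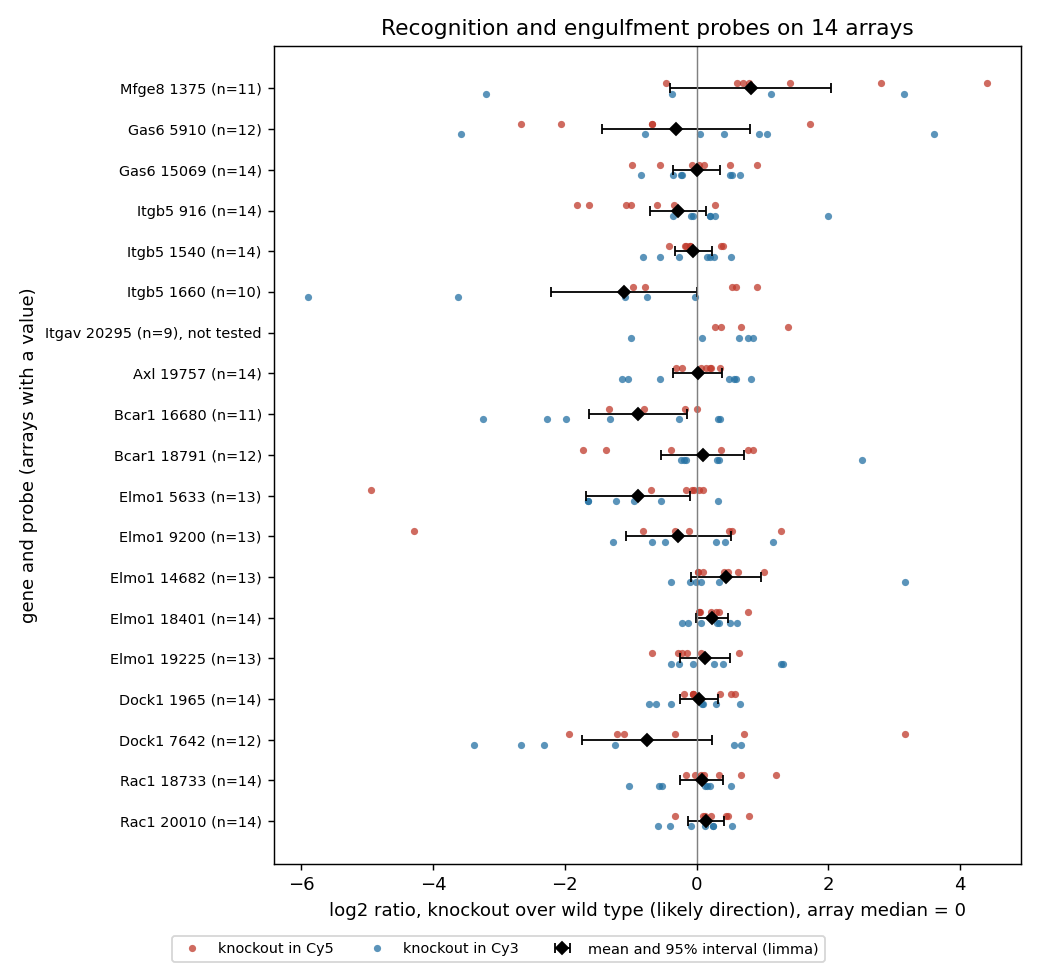
Log2 ratios of knockout over wild type (horizontal axis, array median at 0) for the 19 probes of the recognition and engulfment genes (vertical axis). Each point is 1 array, red with the knockout in Cy5 and blue with it in Cy3, and black diamonds with bars are limma means with 95% intervals. Probes such as Elmo1 18401 and Rac1 20010 hold their arrays within about 1 log2 unit of 0, while Itgb5 1660, Dock1 7642 and Mfge8 1375 spread over several units.

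Among the bridging proteins, Mfge8 could not be placed. Its single probe had 11 values, with a lowest of -3.20 on replicate 5, a median of 0.79 and a highest of 4.40 on replicate 1. It stood above 0 on 8 arrays and below on 3. With the knockout in Cy5, 1 of 7 arrays was below 0, at a mean of 1.46 ± 1.63 (SD, n = 7). With the knockout in Cy3, 2 of 4 were below 0, at a mean of 0.17 ± 2.67 (SD, n = 4). Replicates 1, 2 and 3 were the highest, at 4.40, 3.14 and 2.80. The limma mean was 0.82, with a 95% interval from -0.40 to 2.04 (adjusted p = 0.895). That interval reaches from a 1.32-fold reduction to a 4.11-fold increase.

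Gas6, the ligand of Axl, had 2 probes of very different spread. Probe 15069 was measured on all 14 arrays, from -0.98 on replicate 1 to 0.92 on replicate 13 with a median of -0.018, and 7 arrays lay on each side of 0. Its mean was -0.0010 ± 0.58 (SD, n = 14), and the 95% interval, -0.36 to 0.36, holds changes up to about 1.29-fold in either direction. Probe 5910 ran from -3.57 on replicate 2 to 3.60 on replicate 11, with 6 arrays below 0 and 6 above. For both probes the arrays lay on either side of 0, and neither passed (limma, adjusted p = 0.999 and 0.952).

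Itgb5, the integrin chain that pairs with the alpha-v chain to bind Mfge8, had 3 probes that gave 3 different pictures. Probe 1540, the least variable, ran from -0.82 on replicate 11 to 0.52 on replicate 14 with a median of -0.11. It was below 0 on 8 of 14 arrays, with a mean of -0.050 ± 0.39 (SD, n = 14, limma adjusted p = 0.973). Its 95% interval over arrays, -0.34 to 0.23, reached down to a 1.26-fold reduction.

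Itgb5 probe 916 ran from -1.81 on replicate 9 to 2.00 on replicate 11 with a median of -0.21, and 9 of 14 arrays were below 0. Its mean was -0.29 ± 0.95 (SD, n = 14, limma adjusted p = 0.895). Probe 1660 had 10 values, from -5.89 on replicate 10 to 0.92 on replicate 1, with a median of -0.77. Replicates 10 and 6, at -5.89 and -3.62, stood far below the remaining 8, of which the lowest was -1.08. The mean of probe 1660 was -1.11 ± 2.12 (SD, n = 10), and its unadjusted p of 0.0498 (limma, adjusted p = 0.895) was the closest to 0.05 of the 3.

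Averaged over its probes, Itgb5 was below 0 on 12 of 14 arrays at -0.40 ± 0.65 (SD, n = 14, limma unadjusted p = 0.0420, adjusted p = 0.894 over 9252 genes). At the gene level 0.0865% of genes were called and 5.37% passed the unadjusted level. With probe 1660 left out of the average, a choice made after its values were seen, the gene stood at -0.17 ± 0.43 (SD, n = 14), below 0 on 9 arrays, with an unadjusted p of 0.167 (limma, adjusted p = 0.894).

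Itgav, the partner chain of Itgb5, had 1 probe with 9 usable values and was not tested. Another 3 arrays held the coded extreme, on replicates 2, 8 and 9, and replicates 3 and 10 had no value. The 9 values ran from -1.0 on replicate 6 to 1.38 on replicate 13 with a median of 0.64, and 8 of them were above 0. Of these values, 6 were ratios of whole numbers up to 10, the kind of value that small whole-number readings in both channels give.

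Axl, the receptor for Gas6, showed no shift between knockout and wild type at this precision. Its probe ran from -1.13 on replicate 11 to 0.82 on replicate 14, with a median of 0.17, and 9 of 14 arrays were above 0. The mean was 0.013 ± 0.60 (SD, n = 14), with a 95% interval from -0.36 to 0.38 (limma, adjusted p = 0.994). That interval over arrays reached about 1.30-fold either way. Axl on replicates 1 to 6 was above 0 on every array, from 0.071 to 0.59. On replicates 7 to 12 it was below 0 on 5 of 6, down to -1.13. The lowest were replicates 10 to 12, with the knockout in Cy3, at -0.55, -1.13 and -1.05. Replicates 7 to 9, with the knockout in Cy5, stood at 0.14, -0.32 and -0.22. The labels do not name replicates 1 to 6 and 7 to 12 as batches. These ranges were picked with earlier results known, and the difference between them was not tested. On replicates 11 and 12, where Axl was lowest, the fibroblast genes also had their lowest medians, -0.65 and -0.99. The same held for the recognition and engulfment probes, Axl among them (-0.29 and -0.26), and the list of other receptors (-0.34 and -0.33). It did not hold for the remaining lists. The list of further bridging proteins stood at -0.003 and -0.0965 there. The macrophage markers stood at -0.27 and -0.43, with -0.71 on replicate 2. Signals on the dying cell stood at -0.50 and -0.35, with -0.40 on replicate 4. Further engulfment signalling genes stood at -0.0755 and -0.21, with -0.17 on replicate 4. What these medians add to the Axl values was not tested.

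Bcar1, the p130Cas scaffold that Src-family kinases phosphorylate, had 2 probes. The mean of 1 lay below 0 and that of the other close to 0. Probe 16680 had 11 values, from -3.25 on replicate 2 to 0.35 on replicate 12, with a median of -0.80. It was below 0 on 8 arrays, above on 2 and at 0 on replicate 13. The mean over arrays was -0.97 ± 1.17 (SD, n = 11), and limma, which balances the dyes, gave -0.89 with a 95% interval from -1.63 to -0.15. Its unadjusted p was 0.0227 and its adjusted p 0.895. Leaving out 1 array at a time kept the unadjusted p (limma) between 0.010 and 0.0419 over the 10 fits that could test it. The probe had no value on replicates 1, 3 and 4, so leaving those out removed none of its values. Its Cy5 values were on replicates 7, 8, 9 and 13. Without any of these the probe was not tested, so the fits do not cover their weight. Of its 11 values, 7 were whole-number ratios, a share of 63.6% beside a median of 15.4% over all probes tested. Elmo1 probe 5633 had 1 such ratio in 13 values, and Itgb5 probe 1660 had 3 in 10. Elmo1 probe 18401, described below, had 4 in 14.

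Bcar1 probe 18791 had 12 values, from -1.72 on replicate 4 to 2.52 on replicate 6, with a median of 0.075. It lay below 0 on 6 arrays and above on 6, and its mean was 0.091 ± 1.09 (SD, n = 12, limma adjusted p = 0.979). Of its 12 values 1 was a whole-number ratio. On the 10 arrays that measured both Bcar1 probes, the sign matched on 1. Their mean gave the gene -0.61 ± 1.11 (SD, n = 13, limma unadjusted p = 0.0578).

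Elmo1, which binds Dock1 to form the Rac exchange factor, had 5 probes with means from -0.89 to 0.45. The least variable of all 18 probes was Elmo1 probe 18401, whose residual SD of 0.29 was below that of all but 1.97% of probes. It ran from -0.23 on replicate 10 to 0.78 on replicate 13 with a median of 0.26, and stood above 0 on 12 of 14 arrays, including all 7 with the knockout in Cy5. Its mean was 0.23 ± 0.28 (SD, n = 14), a 1.17-fold difference with a 95% interval from -0.014 to 0.48, and an unadjusted p of 0.0633 (limma, adjusted p = 0.895).

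Elmo1 probe 5633 went the other way. It ran from -4.94 on replicate 1 to 0.33 on replicate 6, with a median of -0.54, and was below 0 on 10 of 13 arrays. Its mean was -0.88 ± 1.39 (SD, n = 13, limma unadjusted p = 0.0302, adjusted p = 0.895). Replicate 1 alone carried much of that size: without it the limma mean moved from -0.89 to -0.54 and the unadjusted p from 0.0302 to 0.00846. The unadjusted p was above 0.05 without replicate 11, 12 or 14, at 0.0606, 0.0520 and 0.0597.

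Of the other 3 Elmo1 probes, 14682 had the highest mean of the 5. Probe 14682 stood above 0 on 10 of 13 arrays, from -0.39 to 3.16 with a median of 0.093, and replicate 11 at 3.16 was far above the next, 1.03. Its limma mean was 0.45, and 0.18 without replicate 11. Probe 9200 was below 0 on 7 of 13, from -4.29 on replicate 13 to 1.28 on replicate 4. Probe 19225 was below 0 on 7 of 13 with a mean of 0.15 ± 0.62 (SD, n = 13). Averaged over all 5 probes, Elmo1 stood at -0.035 ± 0.48 (SD, n = 14), with 7 arrays on each side of 0.

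Dock1, the exchange factor that loads Rac1, again had a tight and a loose probe. Probe 1965 ran from -0.73 on replicate 11 to 0.66 on replicate 2 with a median of 0.011, with 7 arrays on each side of 0. Its mean was 0.034 ± 0.43 (SD, n = 14), and its 95% interval over arrays, -0.26 to 0.32, reached about 1.25-fold. Probe 7642 had 12 values from -3.38 on replicate 5 to 3.16 on replicate 1, with a median of -1.16, and was below 0 on 8. Its mean was -0.76 ± 1.82 (SD, n = 12, limma unadjusted p = 0.123), and without replicate 1 it was -1.08 with an unadjusted p of 0.0165 (limma, adjusted p = 0.909). Without replicates 1 and 2 together it was -1.28 (limma, unadjusted p = 0.00548, adjusted p = 0.758). Whole-number ratios made up 6 of its 12 values and 0 of the 14 of probe 1965.

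Rac1, the GTPase at the end of this pathway, was measured on all arrays by 2 probes that lay close to each other. Probe 20010 ran from -0.59 on replicate 12 to 0.79 on replicate 13 with a median of 0.18 and was above 0 on 10 of 14 arrays. Its mean was 0.14 ± 0.38 (SD, n = 14, limma adjusted p = 0.910). Probe 18733 ran from -1.03 on replicate 12 to 1.2 on replicate 1 with a median of 0.12, above 0 on 9 of 14, at a mean of 0.078 ± 0.55 (SD, n = 14, limma adjusted p = 0.962). The 95% intervals over arrays, -0.14 to 0.41 and -0.25 to 0.40, reached about 1.33-fold higher Rac1 and 1.19-fold lower. Rac1 probe 18733 shared the feature of Axl: all 6 of replicates 1 to 6 were above 0, and 5 of 6 of replicates 7 to 12 were below. On replicates 10 to 12, with the knockout in Cy3, it stood at -0.57, -0.52 and -1.03. On replicates 7 to 9, with the knockout in Cy5, it stood at 0.11, -0.16 and -0.024. Probe 20010 was below 0 on 1 of 6 of replicates 1 to 6 and 3 of 6 of replicates 7 to 12. Gas6 probe 15069 showed the opposite split, below 0 on 5 of 6 and 1 of 6.

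The large means came from probes that varied more between arrays. The 7 probes with a residual SD below 0.6 log2 units, which came from Gas6, Itgb5, Elmo1, Dock1 and Rac1, had means from -0.050 to 0.23, with a median absolute mean of 0.078. The 11 with a larger spread had means from -1.11 to 0.82 and a median absolute mean of 0.45. Over all probes tested, the same limit gave median absolute means of 0.11 for 4781 probes and 0.21 for 13722. The limit of 0.6 was chosen after the spreads had been seen. For 8 of the 18 probes the 95% interval lay within 1.5-fold of no change, and for 11 within 2-fold, beside 33.9% and 74.4% of all probes tested.

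**Figure D2:**
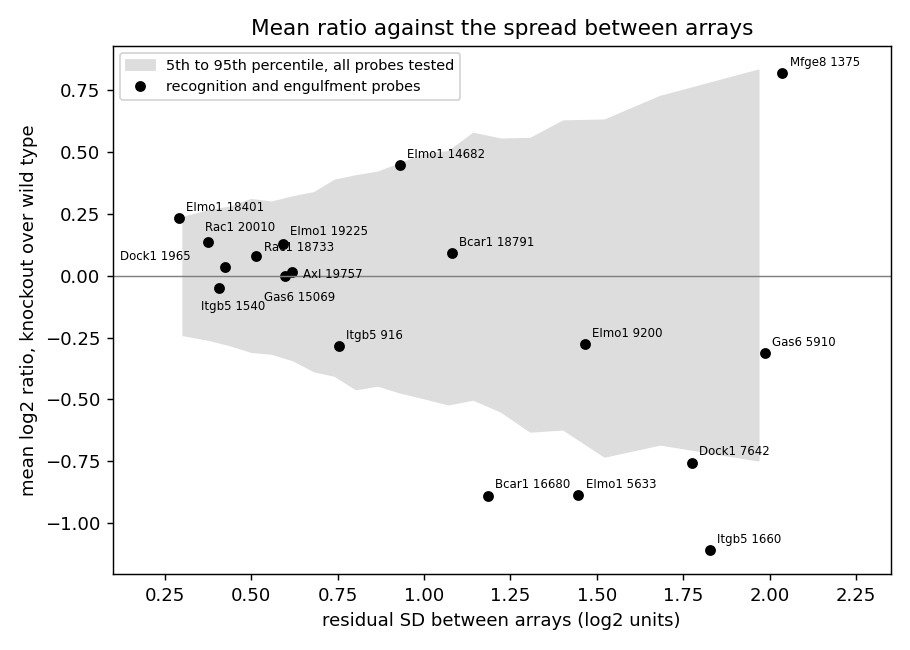
Mean log2 ratio (vertical axis) against the residual SD between arrays (horizontal axis, log2 units) for the 18 recognition and engulfment probes. The grey band spans the 5th to 95th percentile of all 18503 probes tested, in 20 bins of equal size; probes of small spread such as Itgb5 1540 and Dock1 1965 lie close to 0, Bcar1 16680, Elmo1 5633, Itgb5 1660 and, narrowly, Dock1 7642 lie below the band, and Elmo1 14682, Elmo1 18401 and Mfge8 1375 lie near its upper edge.

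Probes annotated to the same gene often went different ways. Over the 17 pairs of probes within a gene, the median share of arrays on which both had the same sign was 46.2%, and over the 4569 such pairs among all probes tested (genes with 2 to 10 probes) it was 50%. The mean absolute difference between paired probes was 1.07 log2 units at the median, against 0.996 over all such pairs. Rac1 had the closest pair, with the same sign on 11 of 14 arrays and a mean difference of 0.30. Elmo1 probes 14682 and 18401 matched in sign on 10 of 13. Itgb5 probes 1540 and 1660 matched on 1 of 10. Which clone each probe holds and which transcript part it covers are not stated in the labels.

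No member had a dye effect past the adjusted threshold (limma dye term, smallest adjusted p = 0.516; 0 of 18, and 0.0054% of all probes). At an unadjusted p below 0.05 there were 2 of 18 probes, 11.1% beside 7.66% of all probes, and both were Itgb5 probes. Itgb5 probe 916 was below 0 on 6 of 7 arrays with the knockout in Cy5, at -0.88 ± 0.73 (SD, n = 7), and at 0.31 ± 0.78 (SD, n = 7) with it in Cy3 (limma dye term, unadjusted p = 0.00953). Probe 1660 differed the opposite way, at 0.058 ± 0.87 (SD, n = 5) in Cy5 and -2.27 ± 2.43 (SD, n = 5) in Cy3, where all 5 arrays were below 0 (limma dye term, unadjusted p = 0.0407, adjusted p = 0.626). Probe 1540 was close to 0 in both, at -0.030 and -0.071. Bcar1 probe 16680 was below 0 in both orientations, at -0.57 and -1.20, as was Elmo1 probe 5633, at -0.82 and -0.95.

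**Figure D3:**
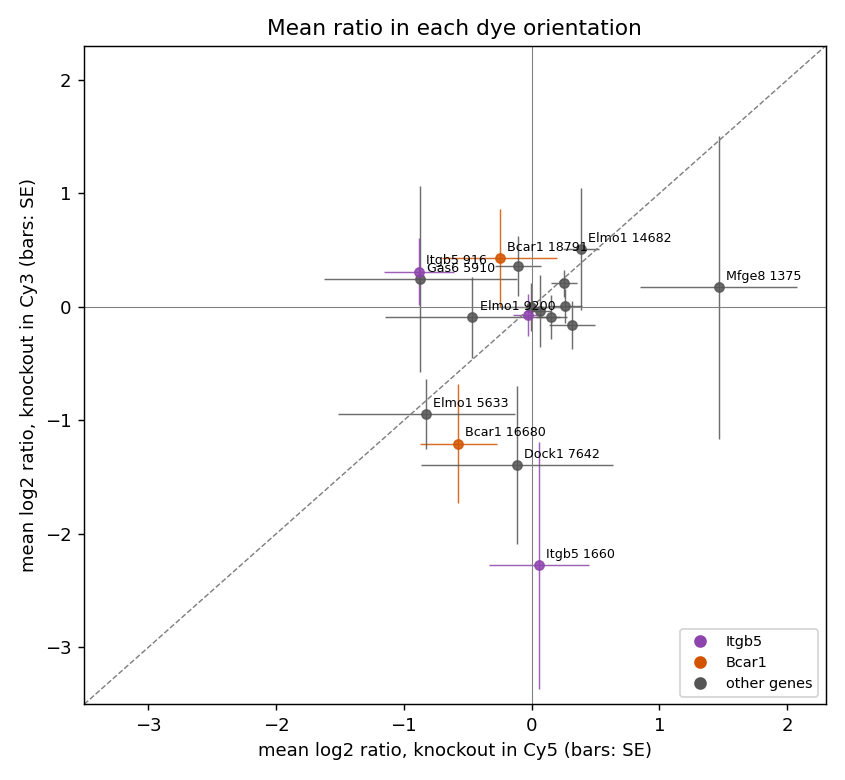
Mean log2 ratio with the knockout in Cy5 (horizontal axis) against the mean with the knockout in Cy3 (vertical axis) for the 18 probes, with bars of 1 SE and a dashed line of equal means. Itgb5 probes 916 (-0.88 and 0.31) and 1660 (0.058 and -2.27) lie on opposite sides of the line, and Bcar1 16680 and Elmo1 5633 lie below 0 on both axes.

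The rest of the pathway was read from lists of other genes. Beside their counts, 0.0324% of all probes tested were called. At an unadjusted p below 0.05 (limma), 2.76% of all probes were lower and 2.3% higher. Of 16 further bridging and opsonin genes, 10 were tested with 1 probe each and 0 were called. At the unadjusted level, p below 0.05, 1 was lower and 0 higher. That gene was Tub, the tubby protein, a ligand of Mertk, at -0.88 ± 1.20 (SD, n = 13), below 0 on 11 of 13 arrays (limma, unadjusted p = 0.0157, adjusted p = 0.895). Pros1, which encodes protein S, a bridging ligand of Tyro3 and Mertk, came next at -0.29 ± 0.58 (SD, n = 13, limma unadjusted p = 0.126). The median of the list was -0.19, with 7 of 10 probes below 0.

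Other receptors for dying cells stayed within the spread between arrays. Of 24 genes, 11 were tested with 19 probes, 0 were called and 0 reached an unadjusted p below 0.05, at a median of 0.068. Itgb1, the beta-1 integrin chain, had the smallest p, on probe 8763 at 0.41 ± 0.80 (SD, n = 14, limma unadjusted p = 0.0621), above 0 on 9 arrays. Its other probes lay between -0.057 and 0.091. Lrp1, a scavenger receptor for calreticulin-marked cells, followed on probe 17512 at -0.55 ± 1.28 (SD, n = 12, limma unadjusted p = 0.132), while its probes 20302 and 5025 lay above 0 at 0.37 and 0.12.

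Genes for exposing phosphatidylserine or for the signals of the target cell gave 0 of 13 probes called and 0 at the unadjusted level, over 7 of 11 genes, with a median of -0.021. Cd47, the signal that blocks uptake, was below 0 on 12 of 14 arrays at -0.34 ± 0.81 (SD, n = 14, limma unadjusted p = 0.123). Its receptor Sirpa had 2 probes of opposite sign, at -0.59 ± 1.34 (SD, n = 12) on probe 17123 and 0.17 ± 0.44 (SD, n = 13) on probe 17755.

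Among further adaptors, GTPases and transporters of engulfment, 15 of 28 genes were tested with 22 probes. None was called (0 of 22). At the unadjusted level 1 was higher and 0 were lower, and the median was 0.10. Myh9, a non-muscle myosin heavy chain, stood at 0.75 ± 1.56 (SD, n = 12, limma unadjusted p = 0.0954) and was above 0 on 7 arrays.

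**Figure D4:**
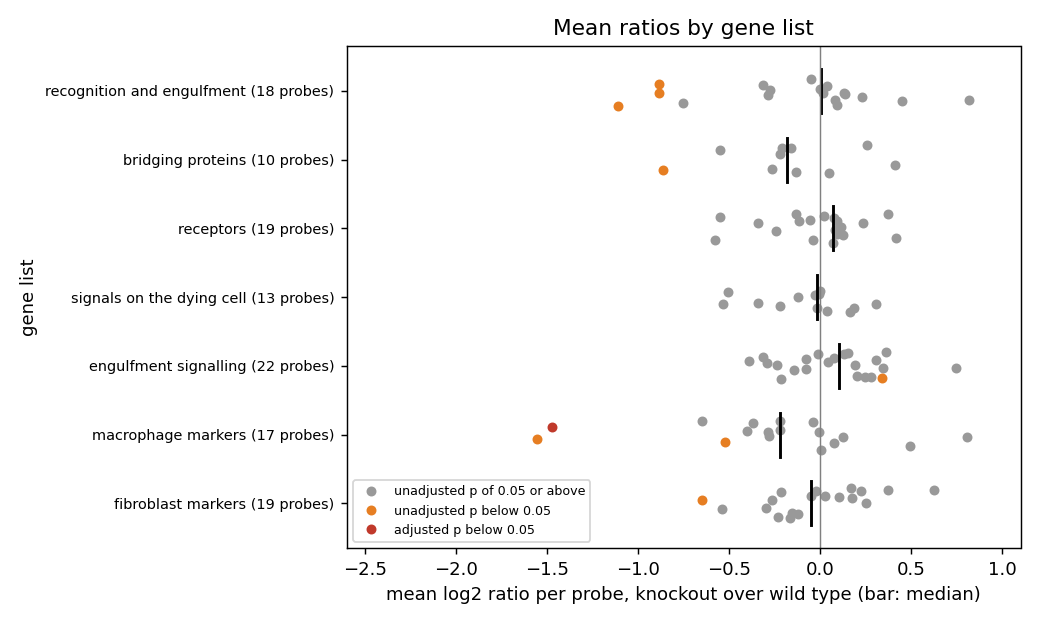
Mean log2 ratio of each probe tested (horizontal axis) by gene list (vertical axis), with vertical bars at the list medians; vertical scatter within a list is only for display. Grey points did not reach an unadjusted p of 0.05, orange points did, and red marks the called probe, the Lyz2 probe among the macrophage markers at -1.47; the medians of the 4 further engulfment lists lie between -0.19 and 0.10.

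The probes nearest to Itgb5 and Bcar1 in value were found by the mean absolute difference of log2 ratios over at least 12 shared arrays. This measures closeness in value, and whether the probes rise and fall together was not tested. For Itgb5 probe 1540 they were Hars, Rnf19a and B4galt1, at 0.13, 0.13 and 0.14 log2 units over 14 arrays, where the median over 10258 named probes was 0.66. For Itgb5 probe 916 they were Tia1, Tjap1 and Ppm1b, at 0.44, 0.44 and 0.46, where the median was 0.98. For Bcar1 probe 18791 they were Zfp36, Htr6 and Ercc3, at 0.41, 0.42 and 0.43 over 12 arrays. The median over 7334 named probes was 0.91. Itgb5 probe 1660 and Bcar1 probe 16680 had too few values for this measure.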

How the data were processed

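Log2 ratios of the 2 channels were deposited by the authors for 20355 probes on 14 arrays; total RNA was labelled indirectly with Cy3 or Cy5, per the labels' protocols. The labels do not say how the arrays were scanned, corrected and normalized. Base 2 was inferred. For this, the 1:1 step of each array was placed 16.61 log2 units from its coded extreme, a distance that was assumed and not observed. With the steps so placed, 13.35% (replicate 4) to 31.44% (replicate 9) of values per array were whole-number ratios. With the grid of ratios shifted, the share was 2.104% (replicate 2) to 3.449% (replicate 6). Values beyond 12 log2 units were set to missing and each array's median was set to 0.

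A probe needed values on 10 arrays, 4 per dye orientation, and was tested with limma 3.58.1 in R 4.3.3 (lmFit, eBayes), with an intercept against 0 and a dye term, and Benjamini-Hochberg adjustment over all probes. The wild-type RNA counts as 1 control whose own spread was not measured, and 14 arrays limit the precision. Genes were named from GEO's platform annotation, which gave 14030 probes 1 symbol; 6325 had several or none. Whole-number ratios were those within 0.0011 log2 units of a ratio of whole numbers up to 10. The fit was tested on simulated data.

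Named were all probes of the chosen genes, Jmjd6, from each further engulfment list the genes with an unadjusted p below 0.05 and the 2 with the smallest p, and the 3 nearest probes of Itgb5 and Bcar1. From the engulfment signalling list, 1 gene that this rule names is not reported here. Members and lists were chosen with earlier results of these data known. Alternatives covered centring, filters, the dye term, the prior, the sign, blocks, scaling and leaving out arrays. No pair of arrays shared more than 0.118% identical values.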

Additional observations from a re-analysis of the deposited data

Results flagged for a closer look

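Within each dye orientation, 36 sets of 4 to 7 arrays were searched for an array that stood apart. Such an array had a gap to its nearest neighbour that was large against the whole range of the set. Of the sets, 6 held one, where the limits used give about 1 in 20 for normally distributed values. The share over all probes was not computed, so the count is not read as a trait of these genes. For Itgb5 probe 916, replicate 11 stood at 2.00 (1.995) with the other Cy3 arrays between -0.37 and 0.28. For Bcar1 probe 18791, replicate 6 stood at 2.52 (2.515) and the other Cy3 arrays between -0.23 and 0.34. Of the Elmo1 probes, 5633 had replicate 1 at -4.94 with the other Cy5 arrays between -0.69 and 0.10, and 9200 had replicate 13 at -4.29 (-4.285) with the others between -0.82 and 1.28. Elmo1 probe 14682 had replicate 11 at 3.16, the other Cy3 arrays lying between -0.39 and 0.34, and probe 18401 had replicate 13 at 0.78 (0.779), with the others between 0.035 and 0.35. None of the 6 values was a whole-number ratio.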

How the results depend on the processing

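In 29 alternative fits no member was called (0 of 458 member results; smallest adjusted p 0.516, Itgb5 probe 916 with the Cy3 arrays turned). The sign of a member's mean changed in 23 of those results outside single left-out arrays and in 20 with 1 array left out; none was a called value, and the cause was not tested. With the Cy3 arrays turned, Itgb5 1540 and 1660 stood at 0.021 and 1.17, Elmo1 5633, 14682 and 19225 at 0.061, -0.064 and -0.24, Dock1 7642 at 0.64, and Bcar1 16680 and 18791 at 0.32 and -0.34; this sign swaps the mean and dye terms, so 1 probe was called for the mean and 6 for the dye. With Cy5 arrays alone, Itgb5 1660 was 0.058, Bcar1 18791 -0.25 and Elmo1 19225 -0.11; with Cy3 arrays alone, Itgb5 916 was 0.31, Dock1 1965 -0.087, Gas6 5910 and 15069 0.24 and 0.0022, Rac1 18733 -0.16 and Axl -0.037, and either dye alone called 0 probes. Gas6 15069 was 0.0019 with coded extremes kept, 0.020 with the random block, 0.028 with arrays scaled alike and 0.15 without arrays 1 and 2, a choice made after seeing the data, where Rac1 18733 was -0.052 and Axl -0.043.

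Over all probes, the 6 called for the mean became 11 with values required on all arrays and 0 with a trended and robust prior. The 1 called for the dye became 0 in both of those, with the block and with scaled arrays, 4 with probes averaged per gene and 2 without arrays 1 and 2. Members at an unadjusted p below 0.05 went from 3 to 1 with values on all arrays (8 probes tested, none of the 3 among them; the 1 was Elmo1 18401, higher), with gene means and with the block, and to 4 with centring on probes measured on all arrays or with Cy3 arrays alone; for the dye term they fell from 2 to 1 with values on all arrays, coded extremes kept, the trended prior or the block, to 0 with gene means, and rose to 3 without arrays 1 and 2 or with the Cy3 arrays turned. Leaving out 1 array gave 4 to 9 called probes, 0 to 3 for the dye term, and 1 to 3 members for the mean and 1 to 2 for the dye term at an unadjusted p below 0.05. It moved Itgb5 1540 between -0.10 and 0.012, Dock1 1965 between -0.028 and 0.087, Gas6 5910 between -0.64 and 0.0045, Gas6 15069 between -0.078 and 0.080, Elmo1 9200 between -0.42 and 0.042, Bcar1 18791 between -0.12 and 0.24 and Axl between -0.059 and 0.10. No paired analysis was possible because all arrays belong to 1 comparison and no 2 share a number. The deposited ratios hold no spot intensity, so signal over background was not analysed here.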
